A study of Mus musculus with 4 samples.

Results

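Genes of cartilage, bone and mineral deposition were followed in cultured aortic smooth muscle cells of mice with a floxed or a normal Atg7 gene. Atg7 is the E1-like enzyme that autophagosome formation requires. The 10 genes were Runx2, Sox9, Alpl, Spp1, Msx2, Enpp1, Mgp, Comp, Ank and Chad. They were chosen by name, and every probe carrying one of these names was taken, which gave 16 of the 41174 probes on the array (10 of 28307 gene or transcript names). The Atg7F/F SM22α-Cre+ cells were homozygous for a floxed Atg7 allele. They were set against Atg7+/+ SM22α-Cre+ cells, so the controls also carried Cre recombinase, in both cases from the smooth muscle promoter of SM22α. All were primary cells from the mouse aorta, of a strain labelled C57LB/6, grown in DMEM/F-12 medium with 10% FBS (fetal bovine serum). Cells between passages 4 and 10 were used. The labels give no age of the animals and do not say which passage or how many animals stood behind an extract.

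Each genotype had 2 biological replicates, called replicates 1 and 2. The Atg7F/F RNA of each number was hybridised with the Atg7+/+ RNA of the same number on a two-colour Agilent array and again with the dyes swapped, 4 arrays in all. Every log2 ratio puts Atg7F/F over Atg7+/+, and each replicate is the mean of its 2 dye-swapped arrays, so n = 2. Levels are normalised log2 signals of single extracts, averaged over both dyes, and can be compared between extracts for 1 probe but not between probes. A probe is called measured where, on all 4 arrays, the scanner software's flag put 1 and the same genotype, or both, well above background and no spot was non-uniform, which held for 17109 probes. Atg7 itself had ratios of -1.26 and -1.09 on the arrays of replicate 1 and of -0.96 and -1.57 on those of replicate 2, lower in Atg7F/F on every array (mean -1.22 ± 0.07, SD, n = 2). The labels do not name the floxed exon, so this probe may lie inside or outside the deletion. Of 8 smooth muscle markers, Acta2, Tagln and Cnn1 had log2 levels between 15.3 and 17.1 in the 4 extracts. The levels of Myh11, Smtn and Lmod1 lay between 11.2 and 12.6 and those of Des between 6.5 and 7.2, and Myocd was not measured.

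Smooth muscle cells of the artery wall can take on features of cartilage and bone cells. Runx2 is the master transcription factor of osteoblasts and Sox9 that of chondrocytes, and Msx2 is a homeodomain factor downstream of bone morphogenetic proteins. Comp and Chad are matrix proteins of cartilage. Spp1 encodes osteopontin, a phosphoprotein that binds mineral and integrins. Mineral growth is held back by pyrophosphate, which Enpp1 makes outside the cell, Ank helps to bring out of it and the alkaline phosphatase Alpl breaks down. Mgp, the matrix Gla protein, is a vitamin K-dependent inhibitor of arterial calcification, and mice without it calcify their arteries.

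The probes of 3 transcripts bear on the findings and are shown for what each detects. Among the 9 measured probes of these genes, that of Comp had the widest gap between the replicates, and the Sox9 probe reads part of the HMG box that binds DNA. The Runx2 probe spans a start codon, in capitals, followed by 15 codons without a stop, at the 5′ end of the isoform that starts from the distal promoter and is associated with bone.
Comp: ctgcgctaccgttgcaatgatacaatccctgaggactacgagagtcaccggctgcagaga
Sox9: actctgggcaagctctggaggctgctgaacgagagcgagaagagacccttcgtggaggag
Runx2: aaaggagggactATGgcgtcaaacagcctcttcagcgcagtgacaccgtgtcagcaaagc
In the mm9 build, by the coordinates in the files, the Comp probe lies at chr8:72905692-72905825 on the plus strand and the Sox9 probe at chr11:112644310-112645162 on the plus strand. Both are 60 bases long but span 134 and 853 bases of the genome, so each crosses a splice junction. The Runx2 probe lies at chr17:44951128-44951187 on the minus strand, 210.1 kb from the Runx2 probe that was measured.

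Of the 16 probes, 9 were measured, for Runx2, Sox9, Spp1, Enpp1, Mgp, Comp and Ank, and each of the 9 passed that flag in every channel of every array. Alpl, Msx2 and Chad, as well as 4 further probes of Runx2 and Sox9, were not measured. None of the 9 probes passed limma's test at an adjusted p below 0.05, and of all probes tested 0% passed (0 of 17109). At an unadjusted p below 0.05 there were 0 of the 9, against 3.13% of all probes, although some alternatives put Runx2 or Mgp just below that p. The smallest unadjusted p among the 9 was 0.142, for Mgp, and the adjusted p by limma was 0.9997 for each of them. The ratios of Comp, Sox9, Mgp, Spp1 and Ank differed by more between the replicates than those of most tested probes. Gaps as wide as those of Spp1 and Ank were reached by 6.33% and 12.6% of tested probes. In RNA from whole cultures, fewer cells of a type cannot be told apart from less RNA per cell.

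Comp, the pentameric cartilage oligomeric matrix protein of the thrombospondin family, had opposite ratios in the replicates. Its log2 levels were 9.49 and 11.75 in Atg7F/F replicates 1 and 2, against 10.60 and 9.67 in the Atg7+/+ extracts. The Atg7F/F extracts were the lowest and the highest of the 4, so the genotypes overlapped. The raw signals in Cy5 were 839.8 and 3349 for Atg7F/F and 1730 and 835.3 for Atg7+/+, and in Cy3 they were 663.9 and 3009 for Atg7F/F and 1460 and 715.1 for Atg7+/+. Both dyes thus put the 4 extracts in nearly the same order, with the 2 low extracts changing places. The ratios were -1.31 and -0.92 on the arrays of replicate 1, a level 2.17-fold lower in Atg7F/F, and 1.82 and 2.34 on those of replicate 2, a level 4.23-fold higher. The mean was 0.48 ± 2.26 (SD, n = 2), a difference smaller than the spread between replicates (limma, unadjusted p = 0.633, adjusted p = 0.9997). The gap between the replicates was 3.20 log2 units, whereas the dye-swapped arrays of 1 replicate lay 0.40 and 0.51 apart. Of all tested probes, 0.094% had a replicate gap at least as wide.

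Sox9 also had opposite signs in the replicates, with the wider spread among its levels in Atg7+/+ cells. The brighter probe, at chr11:112647008-112647067 on the plus strand, had log2 levels of 9.02 and 9.08 in the Atg7F/F extracts, against 9.89 and 8.09 in the Atg7+/+ extracts. The Atg7F/F extracts were nearly equal and lay between the 2 Atg7+/+ extracts, so the genotypes overlapped. The Atg7+/+ extracts differed by 1.80 log2 units, a gap that 0.251% of tested probes reached, and the Atg7F/F extracts by 0.06. The ratios were -0.89 and -0.85 on the arrays of replicate 1, and 0.81 and 1.17 on those of replicate 2 (1.83-fold lower and 1.99-fold higher in Atg7F/F). That gap of 1.86 log2 units between the replicates was reached by 0.497% of tested probes. The mean was 0.06 ± 1.32 (SD, n = 2; limma, unadjusted p = 0.914, adjusted p = 0.9997).

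The second Sox9 probe, the one printed above, was dim and gave the same order of extracts. Its log2 levels were 6.82 and 7.02 in the Atg7F/F extracts and 7.17 and 6.69 in the Atg7+/+ extracts. Its ratios were, on the arrays of replicate 1, -0.38 and -0.33, and on those of replicate 2, 0.21 and 0.45 (mean -0.01 ± 0.49, SD, n = 2). The sign of that mean turned with the background treatment, to 0.02 with a smaller offset and to 0.45 with the scanner software's processed signals. The third Sox9 probe, with 10 spots per array, was well above background in 0 of 80 spot readings.

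**Figure D1:**
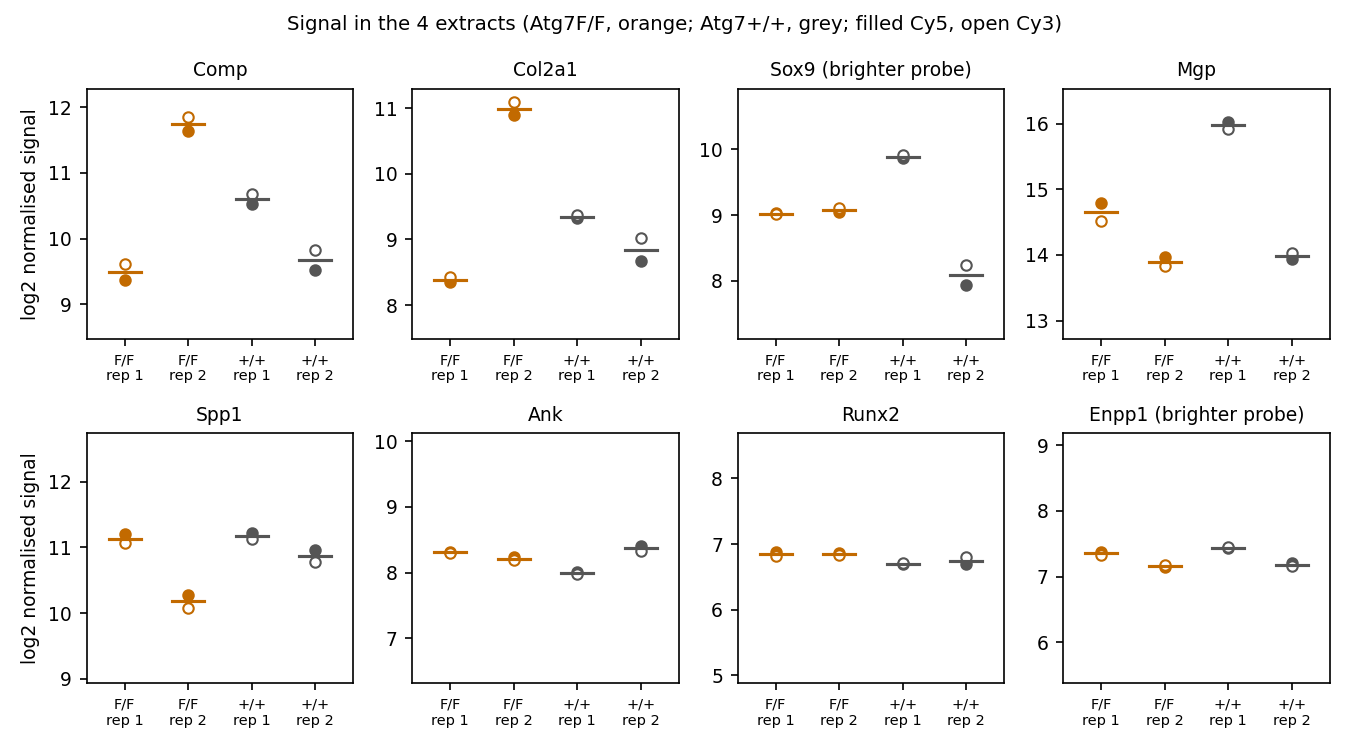
Normalised log2 signal (vertical axis, the same span of log2 units in every panel) of 7 measured members and of Col2a1 in the Atg7F/F extracts (orange, left) and the Atg7+/+ extracts (grey, right) of replicates 1 and 2. Filled points are Cy5, open points Cy3 and bars their mean. Comp and Col2a1 are highest in the Atg7F/F extract of replicate 2, and Sox9 and Mgp in the Atg7+/+ extract of replicate 1.

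Mgp, the calcification inhibitor, had a ratio below 0 on all 4 arrays, with nearly all of the difference in replicate 1. Its log2 levels were 14.66 and 13.90 in the Atg7F/F extracts, against 15.97 and 13.98 in the Atg7+/+ extracts. The Atg7+/+ extract of replicate 1 stood above the other three, and the genotypes overlapped. The raw Cy5 signals were 37680 and 18230 for Atg7F/F and 83900 and 18600 for Atg7+/+, with no saturated spot. The ratios were -1.13 and -1.50 on the arrays of replicate 1, a level 2.49-fold lower, and -0.07 and -0.11 on those of replicate 2. The mean was -0.70 ± 0.87 (SD, n = 2; limma, unadjusted p = 0.142, adjusted p = 0.9997). Under the alternatives replicate 2 ran from -0.10 to 0.15, so its sign was not settled, while replicate 1 stayed between -1.33 and -1.30. The Atg7+/+ extracts differed from each other by 1.99 log2 units, more than the Atg7F/F and Atg7+/+ extracts of either replicate did. A gap between replicate ratios as wide as that of Mgp, 1.23 log2 units, was seen in 1.58% of tested probes. The probe lies at chr6:136821125-136821184 on the minus strand.

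Spp1, osteopontin, was lower in Atg7F/F in replicate 2 and near equal in replicate 1. Its log2 levels were 11.13 and 10.18 in the Atg7F/F extracts and 11.17 and 10.87 in the Atg7+/+ extracts. The Atg7F/F extract of replicate 2 was the lowest of the 4, and the genotypes overlapped. The probe, at chr5:104869788-104869847 on the plus strand, is printed 10 times on each array. The arrays of replicate 1 gave ratios of 0.07 and -0.15, and those of replicate 2 gave -0.50 and -0.88 (1.62-fold lower), with SDs over the 10 spots of 0.02 to 0.04. The sign within replicate 1 thus followed the dye, at a distance larger than the spread over spots. The mean was -0.37 ± 0.46 (SD, n = 2; limma, unadjusted p = 0.163, adjusted p = 0.9997).

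Runx2 gave the 1 probe of the 9 measured on which both Atg7F/F extracts lay above both Atg7+/+ extracts, a pattern that 11.6% of all tested probes had. Its levels by the 10-spot probe at chr17:44741014-44741073, minus strand, were 6.85 and 6.85 in the Atg7F/F extracts, against 6.70 and 6.75 in the Atg7+/+ extracts. The genotypes did not overlap, yet all 4 extracts were dim, with raw Cy5 signals of 131.4 and 120.6 for Atg7F/F and of 113.1 and 107.8 for Atg7+/+, over a local background between 79.3 and 83.5. The ratios were, on the arrays of replicate 1, 0.16 and 0.13, and on those of replicate 2, 0.07 and 0.14, with 10, 10, 10 and 9 of the 10 spots above 0. The mean was 0.12 ± 0.03 (SD, n = 2; limma, unadjusted p = 0.202, adjusted p = 0.9997). The offset of 50 that was added to signals pulls ratios of dim probes towards 0. With an offset of 1 the mean was 0.27, and with the scanner software's processed signals it reached 0.48. None of the 9 probes had both Atg7F/F extracts below both Atg7+/+ extracts, against 10.3% of all tested probes.

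The other 3 Runx2 probes were not measured. The probe over the distal-promoter start codon, printed above, was well above background in 0 of 8 channels, with Cy5 signals of 83.9 to 87.4, as was the probe at chr17:44744925-44744984. The third, next to the measured probe, passed in 4 of 8 channels, on 3 arrays for Atg7F/F and 1 array for Atg7+/+. No level of the distal-promoter transcript could therefore be given in either genotype.

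The pyrophosphate genes that were measured had ratios between -0.22 and 0.34 on single arrays. Ank had log2 levels of 8.31 and 8.21 in the Atg7F/F extracts and 7.995 and 8.369 in the Atg7+/+ extracts. The Atg7F/F extracts lay between the Atg7+/+ ones, as for Sox9. The ratios were, on the arrays of replicate 1, 0.34 and 0.29, and on those of replicate 2, -0.10 and -0.22, with a mean of 0.08 ± 0.33 (SD, n = 2). The brighter probe of Enpp1 had ratios from -0.10 to -0.01 on the 4 arrays and a mean of -0.05 ± 0.05. Its other probe had 0.25 and -0.22 in replicate 1 and 0.03 and -0.22 in replicate 2, so that the sign followed the dye (mean -0.04 ± 0.08). Both probes were dim, so the offset pulls their ratios towards 0 as well. With the scanner software's processed signals the means were -0.135 for the brighter probe and -0.121 for the other. Both Enpp1 probes had higher levels in the replicate 1 extracts than in the replicate 2 extract of the same genotype, by 0.19 and 0.43 in Atg7F/F and by 0.26 and 0.32 in Atg7+/+.

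Alpl was well above background in 0 of 8 channels, with Cy5 signals between 82.4 and 83.6, and Msx2 in 0 of 80 spot readings. Chad, a leucine-rich repeat protein of cartilage, passed in 2 of 8 channels, both in Cy3 of replicate 2 and 1 for each genotype. The lowest Cy5 signal of any spot well above background lay between 91.6 and 99.6. These 3 genes did not meet the criterion in either genotype, and no ratio is given for them.

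**Figure D2:**
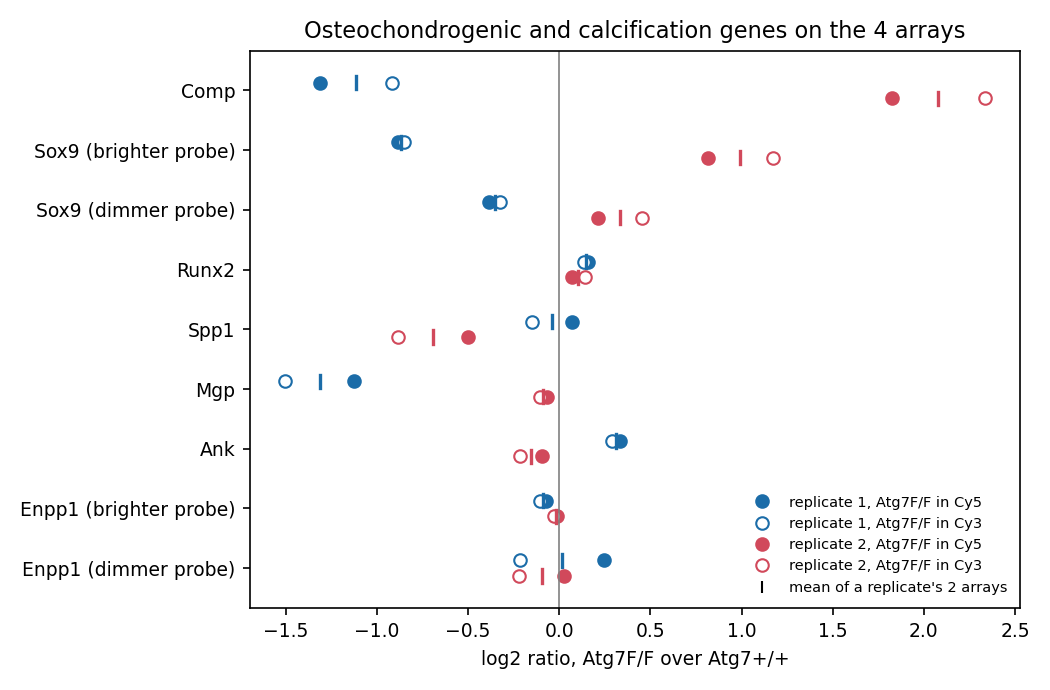
Log2 ratio of Atg7F/F over Atg7+/+ (horizontal axis) for the 9 measured probes on each array. Blue points are replicate 1 and red points replicate 2, filled where Atg7F/F was in Cy5 and open where it was in Cy3, and ticks mark the replicate means. Comp, both Sox9 probes and Ank lie on opposite sides of 0 in the replicates, and Runx2 lies just above 0 on all 4 arrays.

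Across the 9 measured probes, 1 was higher in Atg7F/F on all 4 arrays (Runx2), against 10.2% of all tested probes, and 2 were lower on all 4 (Mgp and the brighter Enpp1 probe), against 10.1%. With both dyes agreeing in each replicate, 4 had opposite signs in the replicates (both Sox9 probes, Comp and Ank), against 25.3%. The other 2, Spp1 and the dimmer Enpp1 probe, had mixed signs. At least 2-fold apart were 2 probes in replicate 1 (Comp and Mgp), against 0.736% of all tested probes, and 1 in replicate 2 (Comp), against 1.22%. On average over both replicates no measured probe was 2-fold apart, and 0.281% of all tested probes were. The median gap between the replicate ratios was 0.65 log2 units over the 9 probes and 0.15 over all 17109, while the median gap between dye-swapped arrays was 0.17 and 0.12. Between the 2 extracts of 1 genotype, the median distance was 0.20 in Atg7F/F and 0.37 in Atg7+/+ over the 9 probes, against 0.15 in Atg7F/F and 0.12 in Atg7+/+ over all. The 9 probes are of 7 genes and were chosen with earlier results known, so these medians only describe them.

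**Figure D3:**
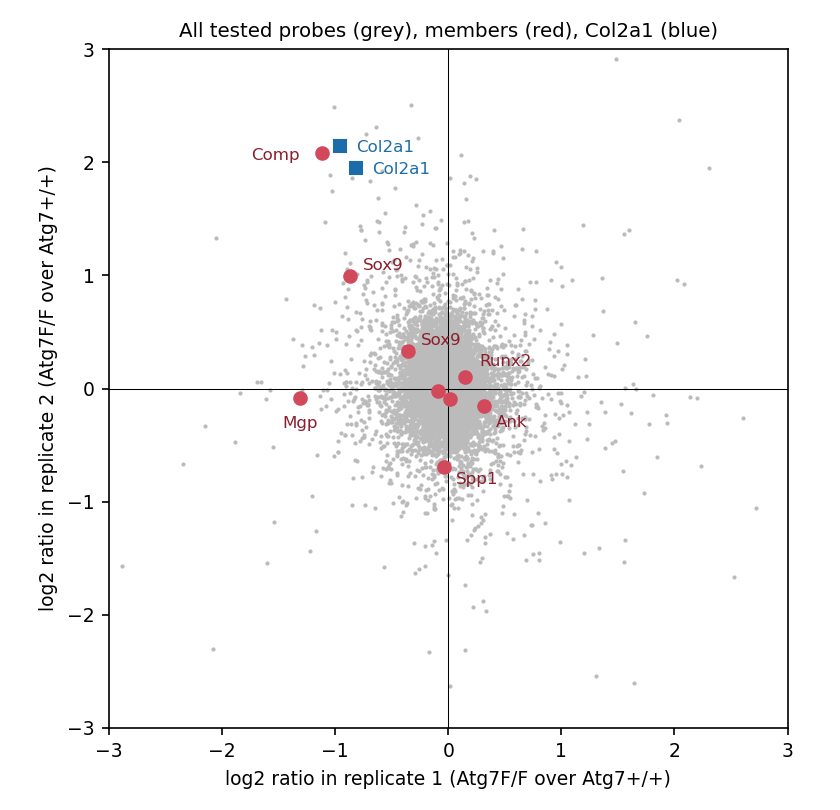
Log2 ratio of Atg7F/F over Atg7+/+ in replicate 1 (horizontal axis) and replicate 2 (vertical axis) for all 17109 tested probes (grey), the 9 measured probes (red; the 2 unlabelled points are Enpp1) and both measured Col2a1 probes (blue). Comp and Col2a1 lie together in the upper left, with Sox9 below them, and 13 grey probes lie outside the axes, which end at 3.

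The gene whose ratios on the 4 arrays were nearest to those of Comp, by Euclidean distance over all tested probes, was Col2a1, which encodes type II collagen, the main collagen of cartilage. Its brighter probe had log2 levels of 8.38 and 10.99 in the Atg7F/F extracts, against 9.34 and 8.84 in the Atg7+/+ extracts. As for Comp, the Atg7F/F extracts were the lowest and the highest. The ratios were -0.96 in replicate 1 and 2.15 in replicate 2, at a distance of 0.31 from Comp, and those of its other measured probe were -0.82 and 1.95. Next came Sned1 at 0.50 (-1.04 in replicate 1 and 1.88 in replicate 2) and a probe named Zfp672 at 0.68 (-1.03 and 1.74). For Mgp the nearest were Unc5a, a netrin receptor, at 0.29, the condensin subunit Ncapg2 at 0.31 and Slc24a3, a sodium/potassium/calcium exchanger, at 0.40. The Unc5a level in the Atg7F/F extract of replicate 1 was 6.24, within the range of the unmeasured Alpl probe (6.19 to 6.26). The replicate 1 ratio of Unc5a may therefore be only a bound. These likenesses rest on 4 arrays of 2 pairs of extracts and describe the ratios only.

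Other cartilage genes varied, some being highest, like Comp, in the Atg7F/F extract of replicate 2 and others, such as Acan, in that of replicate 1. Pairs of values given for listed genes from here on are log2 ratios, that of replicate 1 and then that of replicate 2. Of 28 further chondrocyte genes on the array, 12 were measured and none passed limma's adjusted test. Of the 12, 2 were higher and 1 lower on all 4 arrays and 3 opposite, against 10.2%, 10.1% and 25.3% of all tested probes. The median of the 12 was 0.04 in replicate 1 and 0.11 in replicate 2, against 0.00 in each for all tested probes. Fmod, the collagen-binding proteoglycan fibromodulin, had 0.12 in replicate 1 and 2.07 in replicate 2, and Acan, the cartilage proteoglycan aggrecan, had 1.02 and 0.20. Sox6, a partner of Sox9 in cartilage, had -0.21 and -0.10, and Pth1r, the receptor of parathyroid hormone, 0.04 and 0.59. Acan and Sox6 were dim, with log2 levels of 6.61 to 7.64 and of 6.58 to 6.83, so the offset pulls their ratios towards 0. Only 1 of 5 Sox6 probes was measured. Prelp, a leucine-rich repeat protein of cartilage chosen here after its values were seen, had -0.33 and 2.50 by its brighter probe and -0.05 and 0.48 by the other. Not measured were 16 of the genes, among them Sox5, Matn1, Hapln1, Ihh and the hypertrophic marker Col10a1. The summed normalised signal of the measured genes was 7636 and 20200 in Atg7F/F replicates 1 and 2, against 8331 and 7135 in the Atg7+/+ extracts, of which Prelp, the brightest, made up 27.4% to 54.9%. Without Prelp the sums were 5514 and 9122 in Atg7F/F, against 5661 and 5183 in Atg7+/+. Sums over probes, here and below, weigh each gene by the brightness of its probe. They and the shares describe signal, not amounts of RNA or numbers of cells.

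Of 15 relatives of Comp and Chad (thrombospondins and small leucine-rich proteoglycans), 10 were measured and none passed the adjusted test. Of the 10, 2 were higher on all 4 arrays and 4 opposite, against 10.2% and 25.3% of all tested probes. Their median was -0.06 in replicate 1 and 0.54 in replicate 2. Thbs1 had 0.02 and 0.72, Thbs2 0.11 and 0.54, and Ogn, osteoglycin, 0.14 and 1.22. The other measured Thbs1 probes each had a mean over both replicates of 0.14, against 0.37 for the brightest. Thbs4, another pentameric thrombospondin, was not measured. Fmod, Prelp, Epyc, Ogn, Lum, Dcn and Bgn stand in this list and also in another.

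Osteoblast genes gave no common direction. Of 24 on the array, 13 were measured and none passed the adjusted test, with medians of 0.00 in replicate 1 and 0.09 in replicate 2. Of the 13, 2 were higher and 0 lower on all 4 arrays and 4 opposite, against 10.2%, 10.1% and 25.3% of all tested probes. The type I collagen genes Col1a1 and Col1a2 had 0.10 and 0.11 in replicate 1 and 0.60 and 0.42 in replicate 2. Msx1, the relative of Msx2, had -0.35 and -0.04. Sparc, osteonectin, chosen here after its values were seen, had 0.86 in replicate 1 and -3.93 in replicate 2, with 1 of its 2 probes measured. Osterix (Sp7), Dlx5, Ibsp, Dmp1 and Phex were not measured. None of the 4 other genes of the acidic phosphoprotein family of Spp1 (Ibsp, Dmp1, Mepe and Dspp) was measured.

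The list of other genes of pyrophosphate, phosphate and mineral handling holds enzymes, channels and transporters, some of which act inside the cell. Of 21, 14 were measured and none passed the adjusted test, with medians of 0.14 in replicate 1 and -0.21 in replicate 2. Of the 14, 2 were higher and 2 lower on all 4 arrays and 8 opposite, against 10.2%, 10.1% and 25.3% of all tested probes. Entpd1, an ectonucleotidase that removes phosphates from ATP and ADP, was lower on all 4 arrays, with a mean of -0.75 ± 0.37 (SD, n = 2; limma, unadjusted p = 0.0190, adjusted p = 0.9997). Smpd3, the neutral sphingomyelinase needed for bone mineralisation, had -0.13 in replicate 1 and -0.47 in replicate 2. Car2, a carbonic anhydrase, had 0.34 and 0.08, and the phosphate exporter Xpr1 0.10 and 0.17. Other measured probes had means over both replicates of -0.26 and -0.23 for Smpd3 and of 0.04 for Xpr1. Those of the brightest were -0.30 and 0.13. Abcc6, whose loss causes ectopic calcification, and Phospho1 were not measured.

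A further list holds other inhibitors of calcification and the vitamin K cycle, on which Mgp depends. Of 17 genes, 15 were measured and none passed the adjusted test, with medians of -0.12 in replicate 1 and 0.48 in replicate 2. Of the 15, 1 was higher and 0 lower on all 4 arrays and 10 opposite, against 10.2%, 10.1% and 25.3% of all tested probes. Nqo1, a quinone reductase that can act on vitamin K, was the 1 higher on all 4 (mean 1.46 ± 0.13, SD, n = 2; limma, unadjusted p = 4.81e-04, adjusted p = 0.9997). Bgn had -0.12 in both replicates, but from -0.59 to 0.35 on single arrays, the fibrillin gene Fbn1 had -0.01 and 0.56, and Vkorc1l1 -0.02 and 0.33. The other measured probe of Vkorc1l1 had a mean over both replicates of -0.02, against 0.15 for the brighter one.

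Bone morphogenetic protein (BMP) signalling acts upstream of Runx2, Sox9 and Msx2. Of 36 ligands, receptors, antagonists and mediators, 26 were measured and none passed the adjusted test, with a median of 0.01 in each replicate. Of the 26, 3 were higher and 2 lower on all 4 arrays and 11 opposite, against 10.2%, 10.1% and 25.3% of all tested probes. The ligand Bmp4 had 0.23 in replicate 1 and 0.59 in replicate 2, and Bmp6 -0.31 and -0.38. The target gene Id2 had -0.25 and -0.20, and the mediator Smad5 0.17 and 0.20. Other measured probes had means over both replicates of -0.11 for Bmp6, -0.05 for Id2 and 0.02 for Smad5. Those of the brightest were -0.35, -0.23 and 0.18. Bmp2, Bmp7 and Id1 were not measured. Of 9 genes of the bone resorption axis, in which Spp1 is the ligand of the integrin of Itgav and Itgb3, 7 were measured and none passed the adjusted test. Itgb3 had 0.04 and 1.22, Itgav 0.13 and 0.11, Csf1 0.00 and -0.67 and the acid phosphatase Acp5 -0.59 and 0.02. The other measured probe of Itgb3 had a mean over both replicates of 0.02, against 0.63 for the brighter one.

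**Figure D4:**
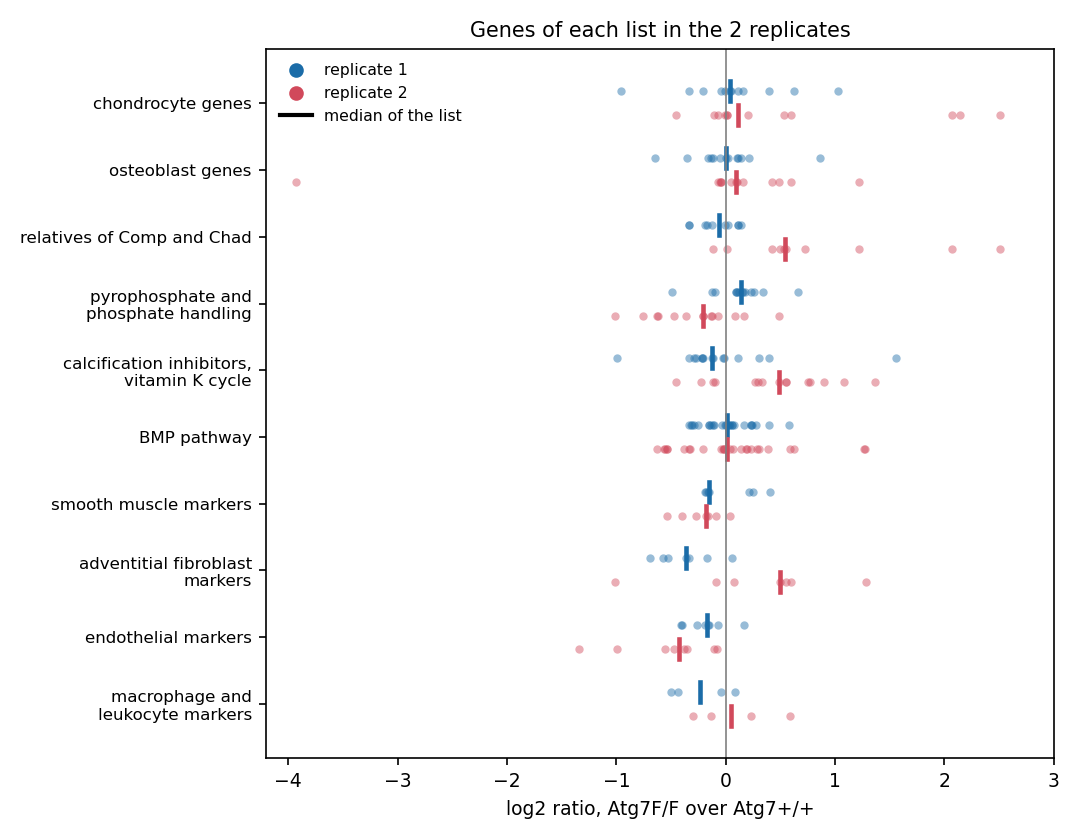
Log2 ratio of Atg7F/F over Atg7+/+ (horizontal axis) of the measured genes of 10 lists, by replicate (blue, replicate 1; red, replicate 2); thick ticks are list medians. The medians lie below 0 in replicate 1 and above 0 in replicate 2 for the relatives of Comp and Chad and the calcification inhibitors. The adventitial fibroblast markers and the macrophage and leukocyte markers do the same. Endothelial and smooth muscle medians lie below 0 in both.

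Markers of other cell types that a culture from the aorta can hold differed between the same extracts. Of 8 adventitial fibroblast and progenitor markers, 7 were measured, with a median of -0.37 in replicate 1 and 0.49 in replicate 2. Their summed normalised signal was 7674 and 6043 in Atg7F/F replicates 1 and 2, against 9788 and 5882 in the Atg7+/+ extracts, of which Dcn, the brightest, made up 26.03% to 69.11%. Without Dcn the sums had another order, 2371 and 3800 in Atg7F/F against 3112 and 4351 in Atg7+/+. Cd34 had -0.37 and -1.01, Dpt -0.57 and -0.09, Pdgfra 0.06 and 0.08, and Lum -0.18 and 0.49, while Gli1 was not measured. All 8 endothelial markers were measured, with medians of -0.17 and -0.43. Of these, 7 were lower on all 4 arrays, against 10.1% of all tested probes, and 1 of the 7, Kdr, passed the filter only through Atg7+/+. The summed signals were 4635 and 4418 in Atg7F/F, against 4509 and 9682 in Atg7+/+. The marker that was not lower on every array, Emcn (0.17 and -1.34), made up 63.8% to 74.4% of them, and without it the sums were 1186 and 1599 in Atg7F/F, against 1438 and 2549 in Atg7+/+. Of 7 macrophage and leukocyte markers 4 were measured, with medians of -0.24 and 0.05 and sums of 1956 and 4550 in Atg7F/F, against 2576 and 3222 in Atg7+/+, of which Lyz2 made up 71.7% to 88.0%. Without Lyz2 the sums were 554.4 and 544.4 in Atg7F/F, against 595.7 and 550.5 in Atg7+/+. Of the 4, 1 was higher (Csf1r) and 2 lower (Cd68 and Cd14) on all 4 arrays and 1 opposite (Lyz2), against 10.2%, 10.1% and 25.3% of all tested probes. The defining macrophage and leukocyte genes Ptprc, Adgre1 and Itgam were well above background on none of the arrays. Of 6 osteoclast markers 3 were measured, with medians of -0.40 and 0.02 and sums of 979 and 1103 in Atg7F/F, against 1278 and 1028 in Atg7+/+. Smooth muscle markers, 7 of 8 measured, had medians of -0.16 and -0.18, and sums of 257400 and 195400 in Atg7F/F against 268200 and 237100 in Atg7+/+. Of the 7, 2 were lower on all 4 arrays (Tagln and Acta2), against 10.1% of all tested probes. A further 2 were opposite, against 25.3%, and 3 had mixed signs. None of these markers passed the adjusted test. The part of these cell types in the values of Comp, Sox9 and Mgp was not tested.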

How the data were processed

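Two-colour Agilent arrays of primary aortic smooth muscle cells of both genotypes were analysed from scanner files. The deposited files hold the mean intensity and local background intensity of each spot, not normalised, along with processed signals and their log10 ratio (Cy5 over Cy3), per the file headers. Per the submitters' processing notes, the authors used Agilent Feature Extraction 10.1.1.1. The deposited value table holds log2 ratios of the processed signals by the authors, which equalled Atg7F/F over Atg7+/+ within 0.001 for 100% of probes. It was not centred, with medians of 0.199 and -0.094 on the arrays of replicate 1 and of 0.081 and -0.037 on those of replicate 2.

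Intensities were corrected for background by normexp with an offset of 50 and normalised by loess within each array, with control spots at weight 0, in limma 3.58.1 (R 4.3.3). Ratios were turned by the labelled dyes, dye-swapped arrays were averaged to 1 replicate, and lmFit with eBayes tested the mean against 0, two-sided, with 3.09 degrees of freedom. Adjustment by Benjamini-Hochberg ran over the 17109 probes past the filter, which also left out 36 probes with non-uniform spots. Every probe past the filter was tested, and lists took the brightest measured probe of a gene. For levels of single extracts, Aquantile normalisation followed loess. It aligned the average intensities of the arrays and left the ratios unchanged, and the channels were then rebuilt from both. In every channel 43.3% to 45.5% of spots were well above background and 0 were saturated. The labels call the replicates biological, and the number of replicates limits the precision.

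Each array holds 2 extracts of the same number, so the hybridised pair is a block. Extracts of 1 number deviated from the means of their genotypes with a correlation of 0.20. The members, the lists and the tests were chosen with earlier results of these data known. The text names every member probe, Atg7, at most 4 genes per list, by smallest p, and the 3 probes nearest in their 4 ratios to a member at least 2-fold apart in a replicate. Prelp, Sparc, Dcn, Emcn and Kdr fall outside it and were named after their values were seen. Bglap, close to its paralogs, is not described. Probe coordinates are those of the files, and exons or untranslated regions are not stated, since no mm9 annotation was used. The code was tested on simulated data. Alternatives covered the offset, background subtraction, processed signals, the deposited table, median centring, the filter, 1 probe per gene, a trended prior, the block and each replicate left out. Figures were drawn with matplotlib 3.10.9.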

Additional observations from a re-analysis of the deposited data

How the results depend on the processing

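Of 11 alternatives, 5 recompute the ratios of the 9 measured probes, the processed signals and the deposited table giving the same values, and 40 of these 45 ratios kept their direction. The other 6 change only the filter or the test. No member probe passed limma's adjusted test under any of the 11, with adjusted p-values between 0.730 and 0.9999. The 5 that changed sign were all of the dimmer Sox9 probe, -0.011 in the reported setting: 0.019 with an offset of 1, 0.053 with no background subtraction, 0.453 with the processed signals and with the deposited table, and 0.009 with median centring. The cause was not tested. Runx2, whose mean ran from 0.125 to 0.479, had an unadjusted p by limma of 0.0407 with the processed signals and with the deposited table and of 0.0478 with no filter, and Mgp of 0.0474 with the pair as a random block. Over all probes, with the pair as a random block in place of averaged replicates, 7 probes were called higher and 2 lower, and with no replicate block, in which extracts were unpaired, 1 was called higher and 0 lower, none of them a member. The median ratio of the members in replicate 1 was -0.208 with the processed signals and with the deposited table and -0.035 with no filter on dim probes, against -0.089, and in replicate 2 it was 0.128 with median centring, against -0.019. Without the filter 2 member probes were higher on all 4 arrays, and with median centring 0 were lower on all 4. Leaving out a replicate leaves the other one's ratio, from -1.115 to 2.08 for Comp, -0.868 to 0.993 for the brighter Sox9 probe and -1.315 to -0.088 for Mgp, with no test. All arrays lay on 1 slide, so a slide block could not be fitted. With 2 replicates per genotype, and with Alpl, Msx2 and Chad not well above background, differences in these genes were not measurable or had wide error.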
